A study of Strongylocentrotus intermedius with 6 samples.

Results

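Solute carriers are membrane proteins that move sugars, amino acids, organic acids, vitamins, nucleosides, metals and other small molecules across cell and organelle membranes. Their genes were examined in RNA-seq libraries of coelomocytes (immune cells that circulate in the body cavity) of the sea urchin Strongylocentrotus intermedius. All 6 libraries carried the label LD, which usually stands for alternating light and dark. They were taken at ZT12 (3 libraries) or ZT0 (3 libraries), where ZT is zeitgeber time, by convention the hours since lights-on. The question is whether transcript levels of these carriers differ between the 2 times. The sources used here do not give age, sex, the hours of light, or whether a library came from 1 animal or a pool. P-values therefore reflect only how much these libraries vary, and that variation may be technical.

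Genes were taken by the protein name in the authors' annotation of each coding model. A gene was included where that name read solute carrier family, monocarboxylate transporter, facilitated glucose transporter, amino acid transporter, sodium/glucose, sodium-coupled, or sodium- and chloride-dependent. Family 26 and names with bicarbonate, anion exchange or sulfate were to be left out, which removed 0 genes. This gave 317 genes under 91 names, among 30559 gene models in all and 16481 coding models with a description. The rule reads names and no measured value.

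Carriers differ in what drives them. Facilitative carriers let a substrate run down its own gradient, while sodium-coupled carriers use the sodium gradient that the sodium/potassium pump maintains, and proton-linked carriers use the proton gradient. In animals, sodium-coupled carriers for sugars, amino acids and nucleosides are best known from the absorptive surface of gut and kidney epithelia, whereas immune cells use glucose, lactate, amino acid and nucleoside carriers to feed growth, killing and signalling. The roles given below are those of the named mammalian proteins and were not measured in sea urchins.

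Total counts were 20229918 to 24368884 per ZT12 library and 21610460 to 22478512 per ZT0 library. The solute carrier genes took 0.476 to 0.647% of these counts at ZT12 and 0.516 to 0.537% at ZT0. Markers of coelomocytes were present in every library. Genes named echinoidin, complement C3, complement factor B, scavenger receptor cysteine-rich or profilin, 70 in all, summed to 14601 to 20774 CPM (counts scaled to library size) at ZT12 and 16979 to 21721 CPM at ZT0, and 5 of them had no count in any library. A profilin gene (ZJQ019423) made 33.8% of the sum. At least 0.1 CPM was reached by 49, 53 and 49 of the 70 in ZT12 libraries 1, 2 and 3. In ZT0 libraries 1, 2 and 3 it was reached by 45, 45 and 48. An echinoidin gene (ZJQ019150) had 0.04, 3238 and 0 CPM at ZT12 and 3472, 6686 and 2861 CPM at ZT0. No gene was found under the names amassin or thymosin. Genes on name-based lists for other cell types were also detected, which does not by itself show that other tissues were present. Muscle genes summed to 727 to 806.5 CPM at ZT12 and 669.8 to 865 CPM at ZT0. Neural genes summed to 655 to 998 CPM at ZT12 and 781 to 1128 CPM at ZT0, of which extended synaptotagmin-2 made 23%. Germ line markers summed to 148 to 191 CPM at ZT12 and 134 to 187 CPM at ZT0. Pigment cell markers summed to 1362 to 2018 CPM at ZT12 and 1624 to 1792 CPM at ZT0, and a polyketide synthase gene made 66.4% of that sum. Skeleton-forming markers summed to 94.9 to 185 CPM at ZT12 and 416 to 843 CPM at ZT0. Of the 11 tested, 6 were called by the test described below, where 0.13% of all genes were.

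Most solute carrier genes had little or no transcript in these cells, and a small number carried most of the transcript. On the scale of FPKM (fragments scaled to gene length and library total, which allows genes of different length to be compared), 29 of the 317 genes averaged at least 10 FPKM over the 6 libraries, 98 lay from 1 to 10, 71 from 0.1 to 1, and 119 under 0.1. Of the last, 12 had no count in any library, where the limit that a count of 0 allows (3 counts) was 0.123 to 0.148 CPM per library, for counting error only. The share under 1 FPKM was 59.9% for the solute carrier genes and 36.9% for all coding models with a description. The 10 most abundant genes together made up 52.6% of the summed FPKM of the 317.

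The roles differed in level. The neurotransmitter and osmolyte carriers (family 6, 30 genes) had the highest median among the roles with more than 10 genes, at 3.97 FPKM, and 22 of them averaged at least 1 FPKM. The monocarboxylate carriers were by far the most numerous, with 141 genes, yet had the lowest median, at 0.0919 FPKM, and 112 of them averaged under 1 FPKM. Medians were 0.425 FPKM for 44 amino acid carriers, 0.209 for 28 vitamin and nucleoside carriers, 0.73 for 26 sugar carriers, 1.29 for 21 carriers of the nucleotide sugar family and 0.612 for 11 organic ion carriers. All 6 metal and inorganic ion carriers exceeded 1 FPKM.

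**Figure D1:**
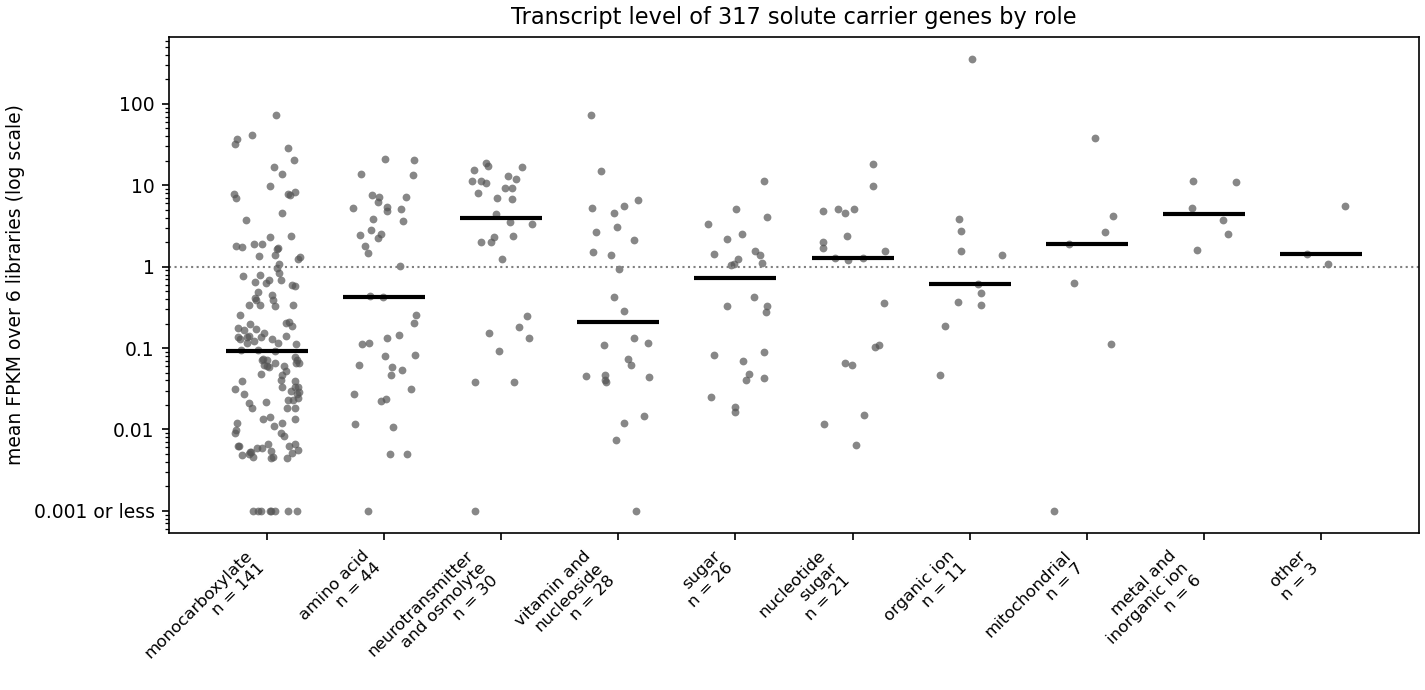
Mean FPKM over the 6 libraries (log scale) of each solute carrier gene, 1 point per gene, by role. Black bars are medians and the dotted line marks 1 FPKM; genes at or below 0.001 FPKM are drawn at 0.001. The monocarboxylate median (0.0919 FPKM) is the lowest, and 1 organic ion gene stands at 353 FPKM.

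The most abundant gene was Slc22a18 (ZJQ019151), which belongs to the organic ion transporter family 22. It had 260, 522 and 237 FPKM in ZT12 libraries 1, 2 and 3, and 454, 251 and 395 FPKM in ZT0 libraries 1, 2 and 3. The libraries therefore lay at a lower level (ZT12 libraries 1 and 3, ZT0 library 2) and a higher level (ZT12 library 2, ZT0 libraries 1 and 3), with both levels present at each time. This gene alone held 25.8% of the summed FPKM of the solute carrier genes. Without it the sum was 909, 1123 and 1180 FPKM in the ZT12 libraries and 926, 1050 and 894 FPKM in the ZT0 libraries.

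SLC16A13 (ZJQ015007), a member of the monocarboxylate family whose substrate in mammals is less well defined, came next. It had 33.5, 81 and 109 FPKM in ZT12 libraries 1, 2 and 3, against 88.3, 73.5 and 56.5 FPKM in ZT0 libraries 1, 2 and 3. SLC23A1 (ZJQ003906), a sodium-dependent vitamin C transporter, had 46.8, 66.8 and 80.6 FPKM at ZT12 and 87.2, 85.4 and 70.8 FPKM at ZT0. Slc16a7 (ZJQ018837), named for monocarboxylate transporter 2, a high-affinity carrier of pyruvate and lactate, had 15.4, 41 and 47.1 FPKM at ZT12 and 38, 40.5 and 39.2 FPKM at ZT0. In these 3 genes ZT12 library 1 held the lowest value of all 6 libraries.

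The other genes among the 10 most abundant lay between 20.7 and 41.8 FPKM. Of the 5 genes for monocarboxylate transporter 5, the 2 abundant ones averaged 41.8 FPKM (Slc16a4, ZJQ000173) and 29 FPKM (Slc16a4, ZJQ000154) over the 6 libraries. The mitochondrial carrier slc25a36a (ZJQ008287), which moves pyrimidine nucleotides into mitochondria in mammals, averaged 37.8 FPKM, a further monocarboxylate transporter 2 gene (SLC16A7, ZJQ011456) 31.9 FPKM, and SLC16A13 (ZJQ009023) 20.7 FPKM. Slc1a2 (ZJQ010564), a glutamate transporter, averaged 21.1 FPKM.

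**Figure D2:**
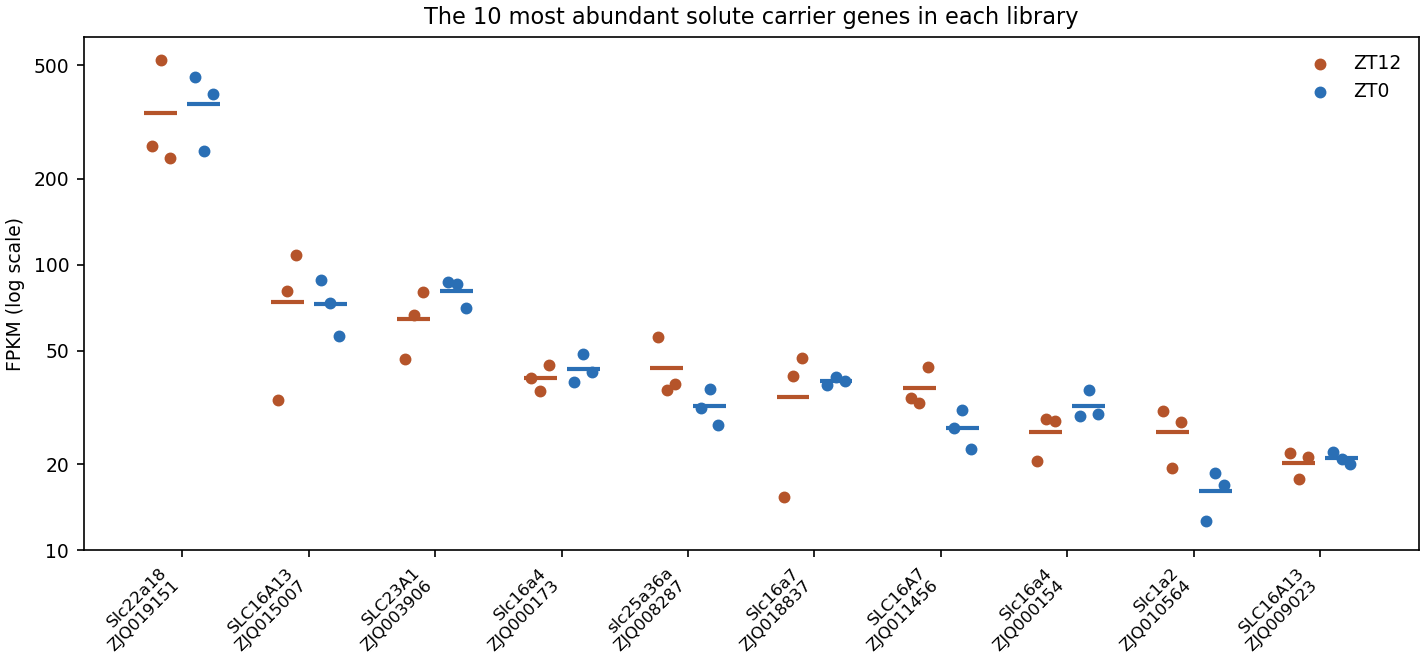
FPKM (log scale) of the 10 most abundant solute carrier genes in each library, with ZT12 in brown on the left and ZT0 in blue on the right of each gene. Points are libraries 1, 2 and 3 from left to right and bars are means of 3. Slc22a18 spans 237 to 522 FPKM at ZT12 and 251 to 454 FPKM at ZT0.

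Genes that share a name differed widely in level. Among 20 genes named monocarboxylate transporter 13, ZJQ015007 held 66.4% of the summed FPKM and 12 averaged under 1 FPKM. Of 10 genes named solute carrier family 23 member 1, ZJQ003906 held 92.4%. Of 10 genes named solute carrier family 35 member G1, ZJQ009695 held 83.3%, and of 7 named b(0,+)-type amino acid transporter 1, Slc7a9 (ZJQ022025) held 78.6%. At the other end, all 13 genes named monocarboxylate transporter 6 and all 12 named monocarboxylate transporter 11 averaged under 1 FPKM. The 15 sodium/glucose cotransporter 4 genes were more even, since the highest (Slc5a9, ZJQ010504) held 24.8%. Near-identical copies could share reads and the strand setting of the counting is unknown here, so the values of single copies are uncertain.

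Between ZT12 and ZT0, no solute carrier gene passed the test. The 164 genes with enough counts were tested within a fit over all 18456 genes (edgeR's quasi-likelihood test, Benjamini-Hochberg adjustment, false discovery rate 0.05), and 0 were called, where 0.13% of all genes were. The lowest adjusted p among them was 0.151. At an unadjusted p under 0.05 there were 20, or 12.2% of the 164, where 7.31% of all genes had such a p. Of the 20, 14 were higher and 6 lower at ZT12, where the background was 3.44% of genes higher and 3.87% lower. DESeq2 called 1 solute carrier gene, slc5a9 (ZJQ017753), and 1.33% of all genes with an adjusted p. The other 153 genes had too few counts for the test and are described by their levels above.

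More of the tested genes lay above than below 0. The median log2 fold change (ZT12 minus ZT0) of the 164 genes was 0.18, with 97 above and 67 below 0, beside a median of 0.00 over all genes tested, of which 50.1% were above 0. The lean was found among genes under 50 CPM. Under 5 CPM on average, 44 of 63 solute carrier genes were above 0 (median 0.32, and 0.07 over all 7142 genes at that level), from 5 to 50 CPM 44 of 78 (median 0.16, and 0.02 over all 8201 genes), and from 50 CPM 9 of 23 (median -0.11, and -0.08 over all 3113 genes). The libraries of the 2 times did not overlap for 18 solute carrier genes higher at ZT12 (11% of those tested, against 5.84% of all genes) and 7 lower (4.27%, against 6.33%). A scarce gene that passed the filter through the libraries of 1 time only could not overlap, among solute carriers and all genes alike. Summed over all 317 genes, the solute carriers reached 4748, 6215 and 5050 CPM in ZT12 libraries 1, 2 and 3, against 5861, 4952 and 5712 CPM in ZT0 libraries 1, 2 and 3, so the totals overlapped. In what follows, a value in parentheses with its SE is a gene's log2 fold change, ZT12 minus ZT0, and overlap is judged on CPM. In bulk RNA such as this, fewer cells of a type and less RNA per cell cannot be told apart.

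**Figure D3:**
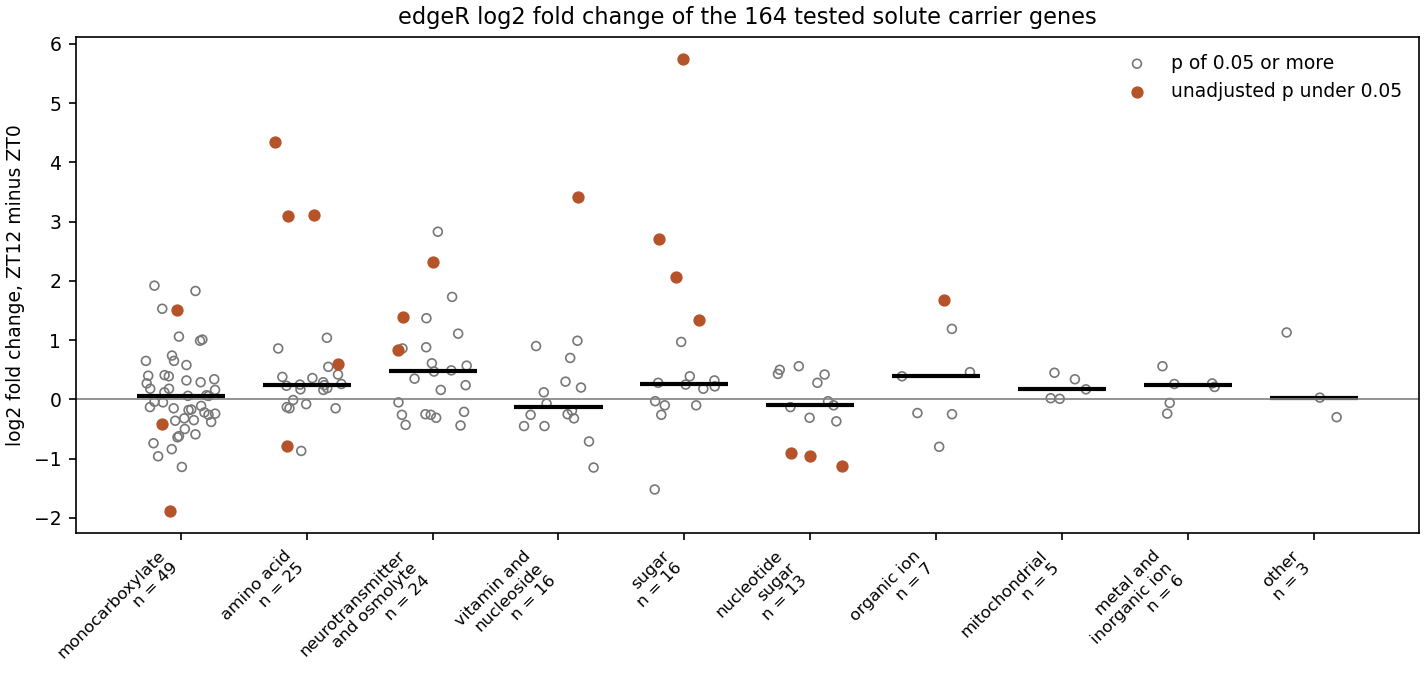
edgeR log2 fold change (ZT12 minus ZT0) of each of the 164 tested solute carrier genes, by role. Filled points have an unadjusted p under 0.05, open points do not, and black bars are medians; no gene passed at a false discovery rate of 0.05. The highest point, at 5.74, is in the sugar role.

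Sugar carriers included the lowest p of all solute carrier genes. Of 16 tested, 11 lay above and 5 below 0, 0 were called, and the median was 0.26. A sodium/glucose cotransporter 4 gene, slc5a9 (ZJQ017753), named for a sodium-coupled carrier of mannose and related sugars, had 3.23, 2.85 and 17.7 CPM in ZT12 libraries 1, 2 and 3 and 0, 0.04 and 0.4 CPM in ZT0 libraries 1, 2 and 3. Every ZT12 library lay above every ZT0 library. This gene passed the filter only through its ZT12 libraries, which fixed that order in advance. The ZT0 libraries held 0, 1 and 8 reads of this gene. Its log2 fold change was 5.74 (SE 1.19, edgeR adjusted p = 0.151), and DESeq2 gave 5.78 (SE 1.12, adjusted p = 8.68e-05). With so few reads at ZT0 the size of this fold change is uncertain. In edgeR it ran from 4.37 to 8.1 when single libraries were left out.

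A second gene of that name, Slc5a9 (ZJQ025189), had 12, 6.46 and 3.38 CPM at ZT12 and 0.2, 0.51 and 2.68 CPM at ZT0, again without overlap (2.71, SE 0.81, edgeR adjusted p = 0.481). The most abundant gene of that name had the lower mean at ZT12. Slc5a9 (ZJQ010504), chosen after its values were seen, had 2.74, 2.9 and 12.6 CPM at ZT12 and 29.4, 15.6 and 7.16 CPM at ZT0 (-1.52, SE 0.71, edgeR adjusted p = 0.703), and its libraries overlapped. SLC2A5 (ZJQ014641), named for the facilitative fructose transporter, had 0.57, 1.81 and 3.93 CPM at ZT12 and 0.56, 0.47 and 0.45 CPM at ZT0 (2.07, SE 0.8, edgeR adjusted p = 0.626). By contrast the most abundant sugar carrier, SLC2A8 (ZJQ019311), a facilitative hexose transporter of intracellular membranes, chosen after its values were seen, had 56.5, 54.7 and 60 CPM at ZT12 and 58.6, 61.5 and 63.4 CPM at ZT0 (-0.10, SE 0.17).

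Among amino acid carriers, copies of 1 name lay in opposite directions. Of 25 tested, 18 were above and 7 below 0, 0 were called, and the median was 0.25. The name in question, b(0,+)-type amino acid transporter 1, is that of the light chain of the exchanger for cystine and dibasic amino acids in mammalian gut and kidney. Its abundant gene, Slc7a9 (ZJQ022025), had 47.7, 45.7 and 69.4 CPM at ZT12 and 97.3, 80.9 and 101 CPM at ZT0, without overlap (-0.78, SE 0.22, edgeR adjusted p = 0.467). A scarce gene of the same name, Slc7a9 (ZJQ016276), had 5.24, 3.33 and 1.74 CPM at ZT12 and 0, 0.09 and 1.14 CPM at ZT0 (3.11, SE 0.94, edgeR adjusted p = 0.478). A further scarce one, SLC7A9 (ZJQ016269), had 3.07, 0.48 and 0.5 CPM at ZT12 and 0.05, 0.04 and 0.1 CPM at ZT0, where 1, 1 and 2 reads per library are too few for a fold change (edgeR adjusted p = 0.407). Both scarce genes were thus higher in all ZT12 libraries while the abundant gene was lower in all of them. However, ZJQ016269 passed the filter only through its ZT12 libraries, which fixed its order in advance.

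Of the 4 tested glutamate transporter genes, 2 did not overlap between the times and 2 did. Slc1a2 (ZJQ010564) had 50.2, 30.6 and 43 CPM at ZT12 and 22.7, 29.5 and 30.3 CPM at ZT0, which did not overlap by a narrow margin (0.59, SE 0.25, edgeR adjusted p = 0.682). Slc1a1 (ZJQ005181), chosen after its values were seen, had 0.78, 1.09 and 2.33 CPM at ZT12 and 0.05, 0 and 0.45 CPM at ZT0 (3.09, SE 1.02, edgeR adjusted p = 0.498). This gene passed the filter only through its ZT12 libraries, which fixed its lack of overlap in advance. Its reads at ZT0 were few, so its fold change is uncertain. The most abundant of the 4 by CPM, Slc1a2 (ZJQ010545), had 79.5, 99.5 and 156 CPM at ZT12 and 106, 142 and 89.7 CPM at ZT0 (-0.01, SE 0.29), and SLC1A3 (ZJQ005180) was at 0.19 (SE 0.54); both overlapped and are named after their values were seen. SLC36A3 (ZJQ010879), of the proton-coupled amino acid transporters, was among the genes that varied most within a time, with 33.1, 17.6 and 25.8 CPM at ZT12 and 25.4, 10.1 and 1.69 CPM at ZT0.

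**Figure D4:**
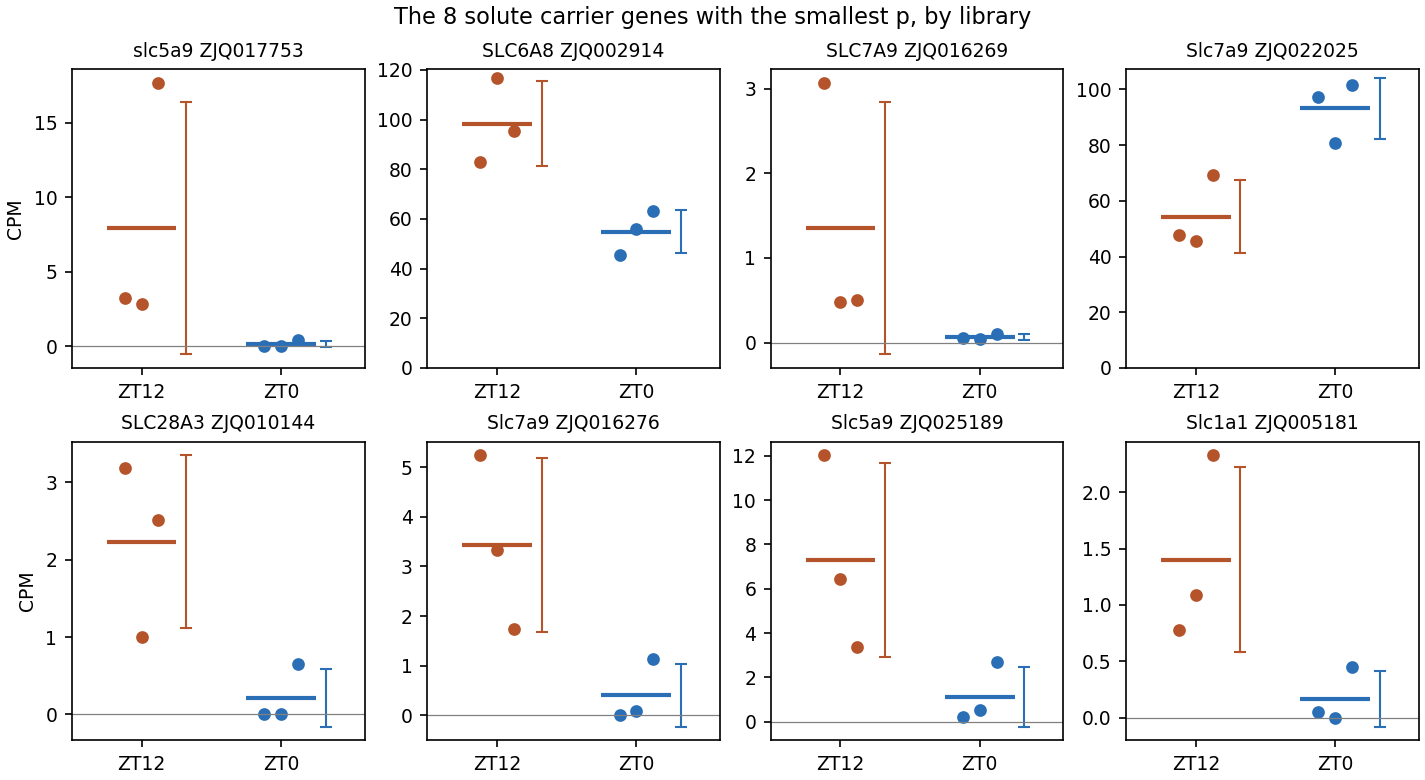
CPM in each library of the 8 solute carrier genes with the smallest p, with ZT12 in brown on the left and ZT0 in blue on the right of each panel, each panel with its own scale from 0. Points are libraries 1, 2 and 3 from left to right, thick bars are means and whiskers 1 SD (n = 3). ZT12 libraries lie above ZT0 libraries in 7 panels and below them in that of Slc7a9 (ZJQ022025). For genes that passed the filter only through ZT12, such as slc5a9 (ZJQ017753) and SLC7A9 (ZJQ016269), this order was fixed in advance.

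The neurotransmitter and osmolyte carriers had the highest median fold change of the roles. Of 24 tested, 16 were above and 8 below 0, 0 were called, and the median log2 fold change was 0.48. SLC6A8 (ZJQ002914), the creatine transporter, had 82.9, 117 and 95.5 CPM at ZT12 and 45.6, 56 and 63 CPM at ZT0. The means were 98.4 ± 17.1 CPM in ZT12 libraries and 54.9 ± 8.75 CPM in ZT0 libraries (SD, n = 3 each), and the ranges did not overlap (0.84, SE 0.21, edgeR adjusted p = 0.362). Its log2 fold change was 0.70 to 0.96 whichever library was left out. SLC6A14 (ZJQ015765), a carrier of neutral and basic amino acids, had 18, 24.6 and 34.3 CPM at ZT12 and 17.5, 4.87 and 7.21 CPM at ZT0 (1.39, SE 0.49, edgeR adjusted p = 0.587).

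A glycine transporter gene, slc6a9 (ZJQ017801), had 2.82, 19.9 and 12.4 CPM at ZT12 and 0.25, 3.03 and 3.63 CPM at ZT0 (2.32, SE 0.85, edgeR adjusted p = 0.613), with an overlap. More abundant genes of that name, named after their values were seen, stood nearer to 0, SLC6A9 (ZJQ018017) at 0.16 (SE 0.20) and slc6a9 (ZJQ017612) at -0.25 (SE 0.29), as did SLC6A14 (ZJQ009687) at -0.26 (SE 0.34). Slc6a14 (ZJQ025382) varied more within a time than any other tested solute carrier gene averaging at least 1 CPM. It had 19.6, 360.2 and 17.3 CPM in ZT12 libraries 1, 2 and 3 and 1.97, 45.7 and 7.5 CPM in ZT0 libraries 1, 2 and 3. Library 2 was highest at each time, and the sources used here do not say whether the replicate numbers pair the libraries. Its log2 fold change of 2.83 (SE 1.41, edgeR adjusted p = 0.72) was -0.01 without ZT12 library 2.

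The monocarboxylate carriers, the largest role, showed no lean to either time. Of 49 tested, 25 were above and 24 below 0, 0 were called, and the median was 0.06. The abundant Slc16a4 genes were lower in all ZT12 libraries, ZJQ000154 at 124, 168 and 160 CPM at ZT12 and 196, 212 and 199 CPM at ZT0 (-0.42, SE 0.18, edgeR adjusted p = 0.671) and ZJQ000173 at 242, 210 and 252 CPM at ZT12 and 257, 282 and 278 CPM at ZT0 (-0.22, SE 0.16, edgeR adjusted p = 0.821). SLC16A7 (ZJQ011456) lay the other way, at 134, 124 and 161 CPM at ZT12 and 115, 118 and 97.3 CPM at ZT0 (0.34, SE 0.18, edgeR adjusted p = 0.735). The margins between times were small beside the levels. For ZJQ000173 the times overlapped in FPKM (40.1, 36.1 and 44.8 at ZT12, and 38.9, 48.6 and 42.2 at ZT0). With plain library sizes its log2 fold change was -0.10. For SLC16A13 (ZJQ009023 and ZJQ015007) and Slc16a7 (ZJQ018837) the times overlapped and log2 fold changes were -0.17, -0.11 and -0.32. The sign for ZJQ015007 turned with plain library sizes (0.03).

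Sodium-coupled monocarboxylate transporters, which carry lactate and short-chain fatty acids, were scarcer. Slc5a12 (ZJQ011306) had 12.9, 7.27 and 7.17 CPM at ZT12 and 2.78, 1.54 and 5.42 CPM at ZT0 (1.51, SE 0.51, edgeR adjusted p = 0.565). Its copy ZJQ011325 was the reverse, with 0.53, 0.19 and 0.14 CPM at ZT12 and 0.66, 1.28 and 1.34 CPM at ZT0 (-1.88, SE 0.67, edgeR adjusted p = 0.567). In both the times did not overlap. For ZJQ011325, ZT12 libraries 2 and 3 were near the limit that a count of 0 allows (0.148 CPM in each), so its fold change is uncertain. slc5a8 (ZJQ006038) varied widely within times, with 6.18, 1.52 and 7.95 CPM at ZT12 and 0.05, 0.09 and 4.13 CPM at ZT0 (1.92, SE 1.07).

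Vitamin and nucleoside carriers were split. Of 16 tested, 7 were above and 9 below 0, 0 were called, and the median was -0.13. The vitamin C transporter gene SLC23A1 (ZJQ003906) had 160.0, 220.2 and 257 CPM at ZT12 and 327, 281 and 265 CPM at ZT0 (-0.45, SE 0.22, edgeR adjusted p = 0.71), so that the highest ZT12 library lay just under the lowest ZT0 library in CPM, while in FPKM the times overlapped. SLC28A3 (ZJQ010144), a concentrative nucleoside transporter, had 3.19, 1 and 2.51 CPM at ZT12 and 0, 0 and 0.65 CPM at ZT0 (3.42, SE 1.07, edgeR adjusted p = 0.468). Its only reads at ZT0 were in library 3, and its log2 fold change was 8.65 without that library, so its size is uncertain. The riboflavin transporter gene Slc52a3 (ZJQ023535) had 2.37, 7.79 and 7.13 CPM at ZT12 and 4.49, 2.61 and 1.54 CPM at ZT0, and SLC49A4 (ZJQ005869) was dominated by library 1 at each time, with 5.11, 1.14 and 0.96 CPM at ZT12 and 14.3, 1.5 and 0.84 CPM at ZT0.

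The nucleotide sugar family (family 35) had more genes below than above 0. Of 13 tested, 5 were above and 8 below 0, 0 were called, and 3 genes had an unadjusted p under 0.05, all lower at ZT12, where 3.87% of all genes were lower with such a p. slc35b1 (ZJQ003227), a carrier of the endoplasmic reticulum membrane in mammals, had 11.6, 13.8 and 11.2 CPM at ZT12 and 26.2, 26.9 and 15.3 CPM at ZT0, without overlap (-0.90, SE 0.29, edgeR adjusted p = 0.538). SLC35G1 (ZJQ014468) averaged 6.58 ± 3.58 CPM in ZT12 libraries and 14.4 ± 4.05 CPM in ZT0 libraries (SD, n = 3 each), and SLC35F2 (ZJQ023216) 17.5 ± 4.24 CPM in ZT12 libraries and 34.1 ± 18.2 CPM in ZT0 libraries (SD, n = 3 each). In both the times overlapped.

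The smaller roles held 0 called genes as well. Of 7 tested organic ion carriers 4 were above and 3 below 0, among them Slc22a13 (ZJQ023932; 1.68, SE 0.69, edgeR adjusted p = 0.649), the vesicular nucleotide transporter gene SLC17A9 (ZJQ011898; 1.19, SE 0.66), slc22a15b (ZJQ002583; -0.80, SE 0.55) and the abundant Slc22a18 (-0.25, SE 0.38, edgeR adjusted p = 0.924). All 5 tested mitochondrial carriers had fold changes from 0.01 to 0.45 on the log2 scale. slc25a36a (ZJQ008287) had 275, 173 and 175 CPM at ZT12 and 169, 174 and 148 CPM at ZT0. slc25a35 (ZJQ008100) was at 0.45 (SE 0.67), and Slc25a44 (ZJQ002848), which carries branched-chain amino acids in mammals, at 0.17 (SE 0.37).

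Of 6 metal and inorganic ion carriers, 4 were above and 2 below 0, from -0.24 to 0.56. They included the iron exporter ferroportin (slc40a1, ZJQ006347), with 3.07, 5.61 and 6.17 CPM at ZT12 and 3.33, 2.26 and 4.47 CPM at ZT0. The magnesium transporter gene SLC41A1 (ZJQ002615) was at -0.24 (SE 0.21), and slc12a9 (ZJQ008017), of the cation-chloride cotransporter family, had 67.1, 63.7 and 73.2 CPM at ZT12 and 62.8, 62.7 and 44.2 CPM at ZT0 (0.26, SE 0.21). The 3 genes outside these roles, Slc66a3 (ZJQ011114), SLC66A2 (ZJQ016246) and SLC4A11 (ZJQ005569), were at 1.13, 0.03 and -0.30.

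Markers of the gut were examined because some of these carriers are known from gut epithelium. These were 87 genes matched on names of digestive enzymes and of phospholipases A2, some of the latter not named for digestion. Of the 87 genes, 4 had no count in any library. Their sum was 5584, 5617 and 6401 CPM in ZT12 libraries 1, 2 and 3 and 6574, 5314 and 7992 CPM in ZT0 libraries 1, 2 and 3, so the sums overlapped. A trypsin-1 gene (ZJQ009370) made 58.7% of them, with 3446, 3345 and 3209 CPM at ZT12 and 4319, 3276 and 4400 CPM at ZT0, which overlapped. A phospholipase A2 gene (ZJQ005156) had 1430, 1832 and 2634 CPM at ZT12 and 1662, 1620 and 3032 CPM at ZT0. These abundant genes dominated the sums, which therefore say little about the scarcer genes of the list. Of the 45 tested, 33 lay above and 12 below 0, with a median log2 fold change of 0.73, and 0 were called. An unadjusted p under 0.05 was found for 16 of the 45 (35.6%, against 7.31% of all genes). Of these, 14 were higher and 2 lower at ZT12, where 3.44% of all genes were higher and 3.87% lower. At least 0.1 CPM was reached by 65, 53 and 64 of the 87 in ZT12 libraries 1, 2 and 3. In ZT0 libraries 1, 2 and 3 it was reached by 40, 38 and 56. Before genes were removed on their names, the list had 122, of which 59 were tested, with a median of 0.65. The median tested gene of the 87 deviated from its own mean by 0.54, -0.33 and 0.35 log2 units in the ZT12 libraries (1, 2 and 3 in turn) and by -0.61, -0.40 and -0.02 in the ZT0 libraries. ZT12 library 2 thus lay below ZT0 library 3 in this measure. The part of gut markers in these results was not tested.

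Variation between libraries of the same time was somewhat larger for solute carrier genes than for all genes, with a median SD within times of 0.505 on the log2(CPM + 0.5) scale over the 164 tested and 0.441 over all 18456. The difference was not tested. The genes with the widest spread were Slc6a14 (ZJQ025382, 2.3 log2 units), SLC49A4 (ZJQ005869, 1.52), slc5a8 (ZJQ006038, 1.46), slc6a9 (ZJQ017801, 1.36) and SLC36A3 (ZJQ010879, 1.32). In the median solute carrier gene no library stood far apart, with deviations of 0.02, 0.03 and 0.14 log2 units in the ZT12 libraries and -0.11, 0.03 and -0.02 in the ZT0 libraries.

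Other transport genes, which the choice of names left out, were tested in the same fit. They were genes for the sodium/potassium pump, sodium exchangers, zinc, nucleoside and organic ion transporters, aquaporins and ATP-binding cassette (ABC) transporters. Of 112 tested, 0 were called by edgeR, and 67 lay above and 45 below 0. An unadjusted p under 0.05 was found for 13 (11.6%, against 7.31% of all genes). Of these, 11 were higher and 2 lower at ZT12, where 3.44% of all genes were higher and 3.87% lower. NKAIN1 (ZJQ018797), named for a protein that binds a subunit of the sodium/potassium pump, was at 0.70 (SE 0.33).

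Of 42 tested ABC transporters 25 were above and 17 below 0. The lowest p was that of ABCC9 (ZJQ003372), whose mammalian namesake is a subunit of potassium channels, with 6.79, 5.75 and 9.64 CPM at ZT12 and 1.36, 0.68 and 0.8 CPM at ZT0 (2.97, SE 0.48, edgeR adjusted p = 0.119). A second ABCC9 gene (ZJQ004518) was at 1.69 (SE 0.55). Of 30 organic ion transporters 20 were above and 10 below 0, and Slco2a1 (ZJQ019767), a prostaglandin transporter in mammals, had 0.74, 0.81 and 0.96 CPM at ZT12 and 0.05, 0.13 and 0.1 CPM at ZT0, too few reads at ZT0 for a fold change (edgeR adjusted p = 0.151). The organic cation transporter gene Orct (ZJQ014438) was at 1.77 (SE 0.56). Aquaporins, which pass water or glycerol, numbered 9 tested, 5 above and 4 below 0, with AQP10 (ZJQ013664) at 38.2, 18.7 and 2.92 CPM at ZT12 and 0.56, 0.77 and 3.38 CPM at ZT0 (3.69, SE 0.99, edgeR adjusted p = 0.411) and AQP8 (ZJQ020942) at 3.85 (SE 1.19). Of 12 zinc transporters 5 were above and 7 below 0. Slc39a12 (ZJQ021604) had 0.98, 0.52 and 0.69 CPM at ZT12 and 0.05, 0 and 0 CPM at ZT0, too few reads at ZT0 for a fold change, and slc39a1 (ZJQ012873) was at -0.73 (SE 0.67). Of 12 sodium exchangers 7 were above and 5 below 0, and of 4 nucleoside transporters 2 were above and 2 below, with SLC29A1 at -0.25 (ZJQ000104) and 0.18 (ZJQ001393).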

How the data were processed

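Coelomocyte RNA of 6 libraries, 3 at ZT12 and 3 at ZT0, was sequenced. Per the labels' protocols, RNA was extracted with TRIzol and libraries were made with a VAHTS universal RNA-seq kit. The submitters' processing notes name fastp, HISAT2 and HTSeq; versions, build, annotation and strand setting were not given in the sources used here. Whole-number counts per gene, not normalized, and FPKM values per library were deposited by the authors. Of 106908 FPKM values backed by at least 10 counts, 100% equalled the count divided by library total and 1 length per gene, within 0.1%.

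Counts were tested with edgeR 4.0.16 (R 4.3.3): filterByExpr (minimum count 10, minimum total 15), TMM, glmQLFit with legacy = FALSE, glmQLFTest, ZT12 minus ZT0, Benjamini-Hochberg over 18456 genes, false discovery rate 0.05. The SE was taken as the size of the log2 fold change over the root of the F statistic. CPM uses TMM-scaled library sizes and FPKM is as deposited. With 3 libraries per time, an exact permutation test reaches 0.1 at the lowest. Same-numbered libraries had correlations of deviations of -0.06, 0.01 and -0.02 over the genes tested. These gave no sign that the numbers pair libraries, but they cannot exclude it. DESeq2 1.42.0 and limma 3.58.1 were alternatives. The steps were tested on simulated counts.

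Genes named were, per role, the 3 with the smallest p; the 10 with the highest FPKM; the 5 with the widest spread within times among those averaging at least 1 CPM; and 2 per list of other transport genes, some of which are not reported here. The genes, roles and lists, including coelomocyte, gut, skeleton-forming, pigment, muscle, neural and germ line markers, were chosen with earlier results of these data known. From the gut list, neurotrypsin, receptor, calcium-independent, group XV and lactase-like genes were removed on names alone, after these were seen. Genome positions and sequences were not analysed here.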

Additional observations from a re-analysis of the deposited data

How the results depend on the processing

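The count of 0 solute carrier genes called held in 14 of 15 alternatives (lowest adjusted p 0.0522 with the replicate block, 0.0824 without ZT12 library 2), while DESeq2 called 1. At an unadjusted p under 0.05 edgeR had 13 to 25 and limma 12 to 14. Among all genes, the 24 calls became 264 with DESeq2, 10 with legacy = TRUE, 0 with limma-voom (1078 at an unadjusted p under 0.05) and 13 with the replicate block, which called 0 solute carrier genes; they ranged from 0 (without ZT12 library 1 or 3, where edgeR had 1398 and 1502 at an unadjusted p under 0.05) to 24 when a library was left out. The median log2 fold change of the solute carrier genes, 0.18, was 0.27 with DESeq2, 0.26 with no filter, 0.30 with log2(FPKM + 0.1) and 0.30 with plain library sizes, which moved the median of all genes to 0.12; without single libraries it ran from 0.11 (without ZT12 library 3 or ZT0 library 1) to 0.28 (without ZT0 library 2). The log2 ratio of summed CPM, -0.05, was 0.08 with plain library sizes. Of 41 named genes 33 kept their sign throughout. With all libraries, SLC4A11 (ZJQ005569) turned to 0.09 with log2(FPKM + 0.1) and SLC16A13 (ZJQ015007) to 0.03 with plain library sizes. Without single libraries the sign turned for Slc25a44 (-0.16 to 0.42), SLC4A11 (-0.69 to 0.57), SLC49A4 (-2.36 to 1.05), slc25a35 (-0.02 to 1.01), SLC16A13 ZJQ015007 (-0.45 to 0.24), SLC66A2 (-0.15 to 0.17), Slc16a7 ZJQ018837 (-0.59 to 0.03) and Slc6a14 ZJQ025382 (-0.01 to 4.8). The cause was not tested. Without single libraries other log2 fold changes kept their sign but moved widely: slc5a9 (ZJQ017753) 4.37 to 8.1, SLC28A3 (ZJQ010144) 2.77 to 8.65, Slc7a9 (ZJQ016276) 2.56 to 6.06, slc5a8 (ZJQ006038) 1.32 to 6.13 and Slc5a9 (ZJQ025189) 2.15 to 4.29.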

Other observations

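The authors' annotation places some of these carriers on a face of epithelial cells, a property the choice of names did not use. Of 29 tested solute carrier genes with the term apical plasma membrane, 21 lay above and 8 below 0 at ZT12 relative to ZT0, with a median log2 fold change of 0.42, and 10 had an unadjusted p under 0.05 (34.5%, against 7.31% of all genes), 8 higher and 2 lower at ZT12; 0 were called. Of the 135 tested without that term, 10 had such a p (7.41%, near the share of all genes), 6 higher and 4 lower. Of 25 with the term basolateral plasma membrane, 13 were above and 12 below 0 (median 0.12), and 0 had such a p. Of 12 with the term lysosomal membrane 6 were above and 6 below 0 (median 0.02). A gene can hold several terms, and the terms were picked after the values were seen, so these are descriptions with no test.

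Carriers of families that use the sodium gradient (families 1, 5, 6, 23, 28 and 38, also grouped after the values were seen) had 35 of 52 tested genes above 0 and a median log2 fold change of 0.37, while the other families had 62 of 112 above 0 and a median of 0.10. An unadjusted p under 0.05 was found for 11 of the 52 (10 higher and 1 lower at ZT12) and for 9 of the 112 (4 higher and 5 lower; 8.04%, near the 7.31% of all genes, of which 3.44% were higher and 3.87% lower). The difference was not tested.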
